A study of Mus musculus with 9 samples.

Results

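The platelet-derived growth factor (PDGF) family was followed at the transcript level through its 2 receptor genes, Pdgfra and Pdgfrb, and its 4 ligand genes, Pdgfa, Pdgfb, Pdgfc and Pdgfd. All non-control probes whose gene name in the array design equals 1 of these 6 symbols were taken, which gave 8 of the 55666 probes kept. Each sample was hybridised to 1 single-colour Agilent 8x60K mouse array. Brain tumours of EZH2-knockout mice on a background of mosaic analysis with double markers (MADM) were measured as tissue on 3 arrays, called EZH2-KO glioma tissue here. EZH2 is the methyltransferase of Polycomb repressive complex 2, and MADM is a mouse genetic system in which recombination between homologous chromosomes leaves rare, colour-marked mutant cells. Glioma cells from brain tumours of the same background, called MADM glioma cells, were measured on 2 arrays, and no genotype beyond that background is labelled for them. Neural stem cells and astrocytes of normal, wild-type C57BL/6J brain were measured on 2 arrays each. The labels name neither the genes recombined in the MADM mice nor the age of any animal. Nothing in them says that replicates were separate cultures or animals, so the p-values measure no more than the scatter of these samples, and that scatter may be technical.

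PDGF ligands are secreted dimers that bind and pair receptor tyrosine kinases. PDGF-AA and PDGF-CC act mainly through the alpha receptor, PDGF-DD mainly through the beta receptor and PDGF-BB through both, and PDGF-C and PDGF-D are secreted as latent forms that proteases activate. In the brain the alpha receptor marks oligodendrocyte precursors, the beta receptor marks pericytes and fibroblasts of vessels and meninges, and endothelium is a known source of PDGF-B for pericyte recruitment. PDGF-A is a mitogen of oligodendrocyte precursors, and PDGF signalling is widely used to model glioma in mice.

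The probes are printed here because every value below is the brightness of such a 60-base oligonucleotide, and because the probe pairs of Pdgfa and Pdgfb differ in what they can check. The first 30 bases are shown 5′ to 3′, and capitals mark bases that the Pdgfa probes share. Positions are those of the array files, in mm9.
Pdgfra probe, plus strand, chr5:75593888-75593947: tgtatatatctgttgctatgtagacttgga
Pdgfa brighter probe, minus strand, chr5:139452934-139452993: actgtagcaCTCAGAGAGACAGTGAGAAAG
Pdgfa other probe, minus strand, chr5:139452925-139452984: CTCAGAGAGACAGTGAGAAAGCTTCCTTGT
Pdgfb brighter probe, minus strand, chr15:79826376-79826435: gttccttctgcttccttcagtttgtaaagt
Pdgfb other probe, minus strand, chr15:79827438-79827497: actccaggctgcaggcttctcttgactcca
Pdgfc probe, plus strand, chr3:81017572-81017631: aaatatggagccattgctaacctacccctt
Pdgfd probe, plus strand, chr9:6376926-6376985: gaaggggcaaagctaagaatatggctcttg
The Pdgfa probes overlap by 51 of 60 bases with starts 9 bases apart, so they are close to a repeat measurement of 1 site. The Pdgfb probes lie 1062 bases apart and share no base. Pdgfrb was read by 1 probe. The Pdgfra probe was spotted 10 times on each array and the others once. The files give each probe's start within its transcript, which was base 6211 for Pdgfra, 5297 for Pdgfrb, 950 and 959 for Pdgfa, 2812 and 1750 for Pdgfb, 3130 for Pdgfc and 1201 for Pdgfd. Coding boundaries were not used here, so whether a probe lies in a coding exon or an untranslated region is not given. Probes differ in brightness for reasons of their own, and levels were compared between arrays for 1 probe at a time, never between genes.

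The share of spots well above background was 60.1% to 65.7% per array, none was saturated, and the 75th percentile of intensity ran from 467 to 1015.5. Levels are given as log2 signal minus the 75th percentile of the same array, so 0 is the signal that 3 in 4 probes do not exceed. All 3 tissue arrays were on 1 slide and the 6 cell arrays on another, read with different versions of the extraction software, so tissue and slide cannot be told apart. Xist, a transcript of the inactive X chromosome, and the Y-linked transcript Ddx3y set samples of a group apart. Among the tissue arrays, array 1 had Xist at 0.20 with Ddx3y not well above background, and arrays 2 and 3 had Xist not well above background with Ddx3y at 0.07 and -1.75. Ddx3y was not well above background on astrocyte array 1 and stood at 1.16 on astrocyte array 2. Both transcripts were well above background on astrocyte array 2 and on both neural stem cell arrays. Ezh2 itself was at 1.71, 1.40 and 1.30 in EZH2-KO glioma tissue, against 2.87 and 3.08 in MADM glioma cells, 1.99 and 3.21 in neural stem cells and 0.00 and -0.78 in astrocytes. The position of its probe relative to the deleted part is not known, so it is no check of the knockout. Markers of the labelled cell types were present: the astrocyte list averaged 4.70 and 3.19 on the astrocyte arrays, and the list of neural stem cells and radial glia 3.24 and 3.16 on the neural stem cell arrays. They were not confined to those arrays. The astrocyte list averaged 3.51 on neural stem cell array 1 and 3.26 on tissue array 2, both above astrocyte array 2. The list of neural stem cells and radial glia averaged 2.71 on astrocyte array 1, so these means are no check of identity.

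Calls required a limma p under 0.05 after Benjamini-Hochberg adjustment over all genes tested, together with a change of 2-fold or more. Against astrocytes, 3 of the 6 genes fell in MADM glioma cells, where 9.67% of all 24866 genes tested were called lower, and none rose, where 9.70% were called higher. Against neural stem cells none of the 6 was called in MADM glioma cells, a comparison in which 0.680% of genes were called higher and 0.322% lower, and 3616 genes had an unadjusted p under 0.05. In neural stem cells 2 of the 6 fell and none rose against astrocytes, with 7.75% of genes called lower and 7.21% called higher. EZH2-KO glioma tissue was fitted with 25397 genes tested. Against MADM glioma cells 2 of the 6 rose there and none fell, with 7.65% of genes called higher and 9.93% called lower. Against neural stem cells 1 of the 6 rose and none fell, with 7.91% called higher and 10.7% called lower. Against astrocytes 1 of the 6 rose and 3 fell, with 10.5% called higher and 12.5% called lower. On the unscaled deposited table the split of all genes shifts: MADM glioma cells over astrocytes had 1206 higher and 2807 lower in place of 2413 and 2404, neural stem cells over astrocytes 649 and 2040 in place of 1793 and 1927, the tissue over MADM glioma cells 2979 and 762 in place of 1944 and 2523, and over neural stem cells 2618 and 753 in place of 2010 and 2720. The 3 tissue comparisons share the tissue arrays, and the comparisons with astrocytes share the astrocyte arrays, so their results are not independent of each other.

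**Figure D1:**
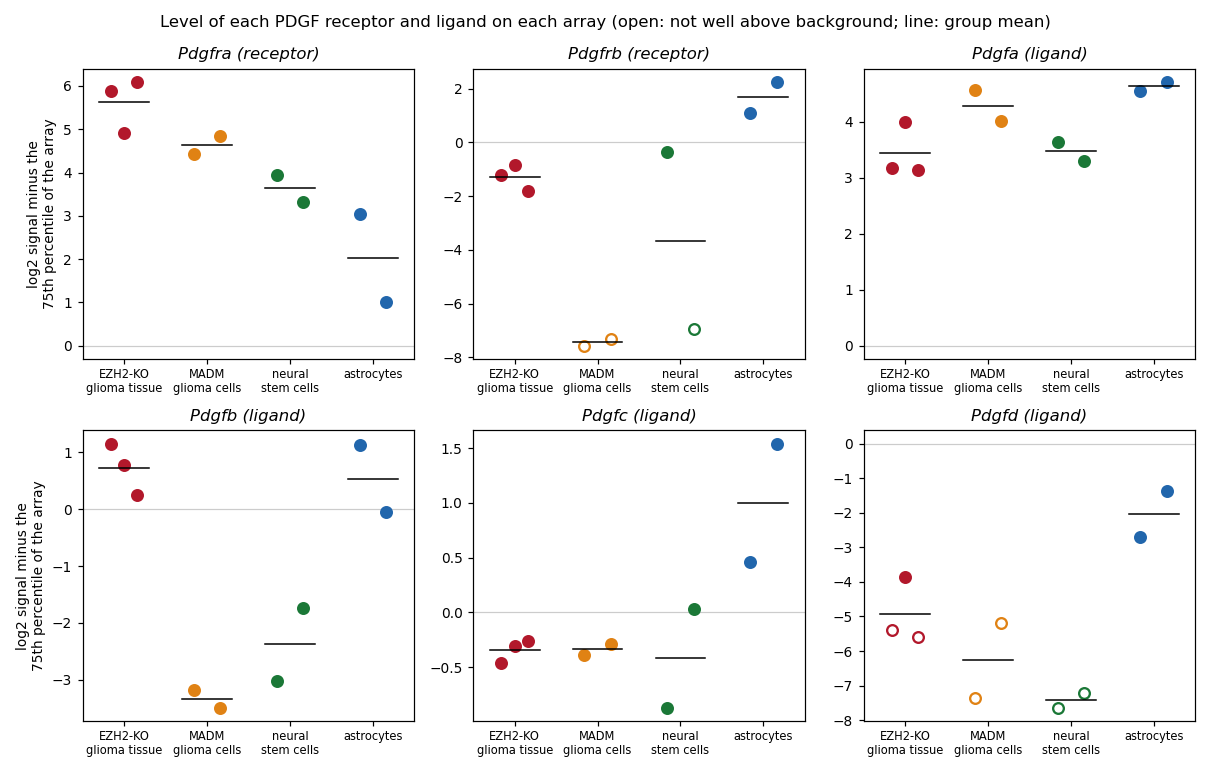
Each point is 1 array and each panel 1 gene, read by its brighter probe, with the level as log2 signal minus the 75th percentile of the array on the vertical axis and EZH2-KO glioma tissue, MADM glioma cells, neural stem cells and astrocytes from left to right. Filled points are well above background, open points are not, and the line is the group mean. Pdgfra levels descend from 5.63 in the tissue to 2.02 in astrocytes, Pdgfrb has open points at -7.56 and -7.31 in MADM glioma cells, and Pdgfd is open in every MADM glioma cell and neural stem cell sample.

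The alpha receptor gene, Pdgfra, was well above background on all 9 arrays. It stood at 5.88, 4.92 and 6.10 in EZH2-KO glioma tissue, at 4.43 and 4.85 in MADM glioma cells, at 3.95 and 3.32 in neural stem cells, and at 3.03 and 1.00 in astrocytes. In that order each group lay wholly below the one before it, with no overlap of arrays, as was the case for 55.6%, 46.1% and 66.7% of all genes between the same neighbouring groups. The processed intensity ran from 23893 to 69550 in the tissue, against 1638 to 5922 in astrocytes. The SD over the 10 spots of an array was 0.05 to 0.12, while the astrocyte arrays differed by 2.03, so spot noise was small beside the difference between samples.

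Pdgfra rose in EZH2-KO glioma tissue over astrocytes by 12.3-fold (log2 fold change 3.62 ± 0.62 SE, 95% interval 2.16 to 5.07, limma adjusted p = 0.00713). That call held under all 17 alternatives run, with an adjusted p of at most 0.0305 and log2 fold changes between 2.60 and 4.63. No other comparison passed for this receptor. MADM glioma cells were 6.16-fold above astrocytes by the fit, with an adjusted p of 0.0582 (log2 fold change 2.62 ± 0.71, interval 0.83 to 4.42). It passed with normexp background correction (0.0459), with all 9 arrays in the fit (0.0293) and without astrocyte array 1, and stayed uncalled in 11 of 14 alternatives. Over these the log2 fold change ran from 1.61 to 3.64. EZH2-KO glioma tissue over neural stem cells gave 4.0-fold and an adjusted p of 0.0609. That value passed under normexp (0.0422), quantile normalization (0.0360), the unscaled deposited table (0.0384), a fit of these groups alone (0.0343) and without astrocyte array 1 or 2. It stayed uncalled in 11 of 17 alternatives, over which the log2 fold change ran from 1.69 to 2.55. Neighbours in the order were not separated: the fitted difference was 0.99 (interval -0.46 to 2.45, adjusted p = 0.295) for EZH2-KO glioma tissue over MADM glioma cells, 1.01 (-0.79 to 2.81, adjusted p = 0.601) for MADM glioma cells over neural stem cells and 1.61 (-0.18 to 3.41, adjusted p = 0.169) for neural stem cells over astrocytes.

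Other markers of oligodendrocyte precursors, the cells that Pdgfra marks in brain, were as a list also lowest in astrocytes. A list of 12 such genes, without Pdgfra, averaged 3.72, 3.58 and 4.06 in EZH2-KO glioma tissue, 4.18 and 2.89 in MADM glioma cells, 3.01 and 1.34 in neural stem cells and -1.08 and -1.64 in astrocytes. Of the 12 tested, 8 rose in EZH2-KO glioma tissue over astrocytes and none fell, against 10.5% and 12.5% of all genes. The median log2 fold change was 3.87, against -0.06 over all genes. In MADM glioma cells over astrocytes 8 of 12 rose and none fell, against 9.70% and 9.67% of all genes. The median was 4.17 (4.09 with dim signals raised to the weakest signal well above background on their array) against 0.18 over all genes. Gpr17, a receptor of committed precursors, was well above background on every tissue, glioma cell and neural stem cell array and on neither astrocyte array. Other genes of the list did not follow Pdgfra. Matn4 stood at 5.08 and -1.42 in MADM glioma cells and at 0.21 and -1.53 in neural stem cells. Its astrocyte values were 1.32 and 0.12. C1ql1 stood at -0.02 and -2.71 in neural stem cells, against 0.11 and 0.50 in astrocytes. In EZH2-KO glioma tissue over MADM glioma cells none of the 12 was called, where 7.65% of all genes were called higher and 9.93% lower. So few genes could be called by that share that this is no result about the list. Its median log2 fold change there was -0.10, against -0.20 over all genes. Whether these markers and Pdgfra come from the same cells was not tested.

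The beta receptor gene, Pdgfrb, had a different order. Its probe lies on the plus strand of chromosome 18, from 61244606 to 61244665 in mm9. It stood at -1.22, -0.85 and -1.81 in EZH2-KO glioma tissue, at -7.56 and -7.31 in MADM glioma cells, at -0.37 and -6.96 in neural stem cells, and at 1.09 and 2.25 in astrocytes. It was not well above background on either MADM glioma cell array or on neural stem cell array 2. The neural stem cell arrays differed from each other by 6.59, the widest gap between replicates of any of the 8 probes. Astrocytes were the highest group, the tissue arrays lay close together below them, and neural stem cell array 1 lay between them.

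In MADM glioma cells Pdgfrb fell against astrocytes and was at least 124-fold lower on the signals of the main fit. A bound sets the mean of the brighter group against the higher, on each array of the dimmer group, of the gene's own signal and the weakest signal called well above background there. That weakest signal is no strict detection limit: on tissue array 3 it was 21.02, and Pdgfd at 21.13 was not well above background. For Pdgfrb the bound ran from 83.0 to 186 with 1 array left out. Over 13 alternatives its fitted log2 fold change ran from -9.69 to -5.08, the latter a smaller change than the bound of 6.96 in log2. The limma adjusted p was 0.0394, and with any 1 of the 4 arrays of these groups left out it lay between 0.118 and 0.142, so the call needs all of them. It was 0.0517 with no filter on dim probes. On the same signals EZH2-KO glioma tissue was at least 15.9-fold higher than MADM glioma cells (adjusted p = 0.0368, bound 13.6 to 19.0 with 1 array left out). This bound is 3.99 in log2, and over 16 alternatives the fitted log2 fold change ran from 2.41 to 6.72. That call was also lost when any tissue array, either glioma cell array or either astrocyte array was left out, with adjusted p values of 0.0547 to 0.146, and under normexp background correction (0.0514).

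The other comparisons of Pdgfrb turn on the neural stem cell pair, whose spread enters each fit of all cell arrays. EZH2-KO glioma tissue over astrocytes had a log2 fold change of -2.97 (interval -6.70 to 0.77, adjusted p = 0.211), and the adjusted p was 0.00683 or 0.00689 with array 1 or array 2 of the pair left out and 0.0111 in a fit of the tissue and astrocyte arrays alone. With normexp it was 0.0285. EZH2-KO glioma tissue was at least 2.84-fold higher than neural stem cells with all arrays (adjusted p = 0.325). That adjusted p was 0.00452 when neural stem cell array 1 was left out, and the log2 fold change was -0.92 without array 2, so its direction depends on which of the pair is kept. By the group means, neural stem cells were at least 22.2-fold lower than astrocytes (adjusted p = 0.134, interval of the fitted log2 fold change -10.6 to -0.10). That log2 fold change was -8.63 without array 1 of the pair and -2.05 without array 2, so its size depends on which of the pair is kept. In these bounds the signal of neural stem cell array 2 was raised to the weakest signal called well above background on that array. With MADM glioma cell signals raised in that way, these cells were 3.07-fold lower than neural stem cells (adjusted p = 0.497). There neural stem cell array 2, not well above background, entered as measured, so this is no bound. It ran from 0.313 to 30.1 with 1 array left out.

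Markers of cells known to carry the beta receptor were read beside it. In these bulk samples fewer cells of a type and less RNA per cell cannot be told apart. The list of pericytes and smooth muscle, 11 tested genes, averaged -0.71, -0.67 and -1.10 in EZH2-KO glioma tissue, -4.62 and -4.64 in MADM glioma cells, -2.68 and -3.52 in neural stem cells, and -2.08 and -1.27 in astrocytes. Rgs5, Abcc9 and Des were well above background on all 3 tissue arrays and on none of the 6 cell arrays. Other genes of the list lay higher on both astrocyte arrays than on any tissue array: Tagln, an actin-binding protein of smooth muscle, stood at 2.42, 1.91 and 0.54 in EZH2-KO glioma tissue, against 3.54 and 7.64 in astrocytes, and Notch3, a receptor of mural cells, at -0.50, 1.07 and -0.66 in the tissue, against 2.26 and 2.08 in astrocytes. In EZH2-KO glioma tissue over astrocytes 4 of the 11 rose and 2 fell, where 10.5% of all genes were called higher and 12.5% lower. In EZH2-KO glioma tissue over MADM glioma cells 7 of 11 rose and none fell, against 7.65% and 9.93% of all genes. The median log2 fold change was 3.00 (2.30 with dim signals raised in the same way) against -0.20 over all genes. In the fits of cell arrays alone 7 genes of this list were tested. The rest of the 11 passed the filter only through the tissue, so neither count is a test of those genes.

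The astrocyte arrays carried fibroblast transcripts unevenly. The list of fibroblasts and meninges, 9 tested genes, averaged -0.98 on astrocyte array 1 and 3.93 on astrocyte array 2, against -0.84, -0.92 and -3.11 in EZH2-KO glioma tissue. Dcn, a proteoglycan of fibroblasts, was at -0.98 and 6.52 on the astrocyte arrays, and Col1a1, a fibrillar collagen chain, at 4.50 and 5.62. Acta2, the actin of smooth muscle and myofibroblasts, was at 3.75 and 7.03. Pdgfrb was above its level in every other sample on both astrocyte arrays, and was 1.16 higher on array 2 than on array 1. In MADM glioma cells the fibroblast list averaged -2.78 and -4.57. The part of these cells in the Pdgfrb values was not tested.

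**Figure D2:**
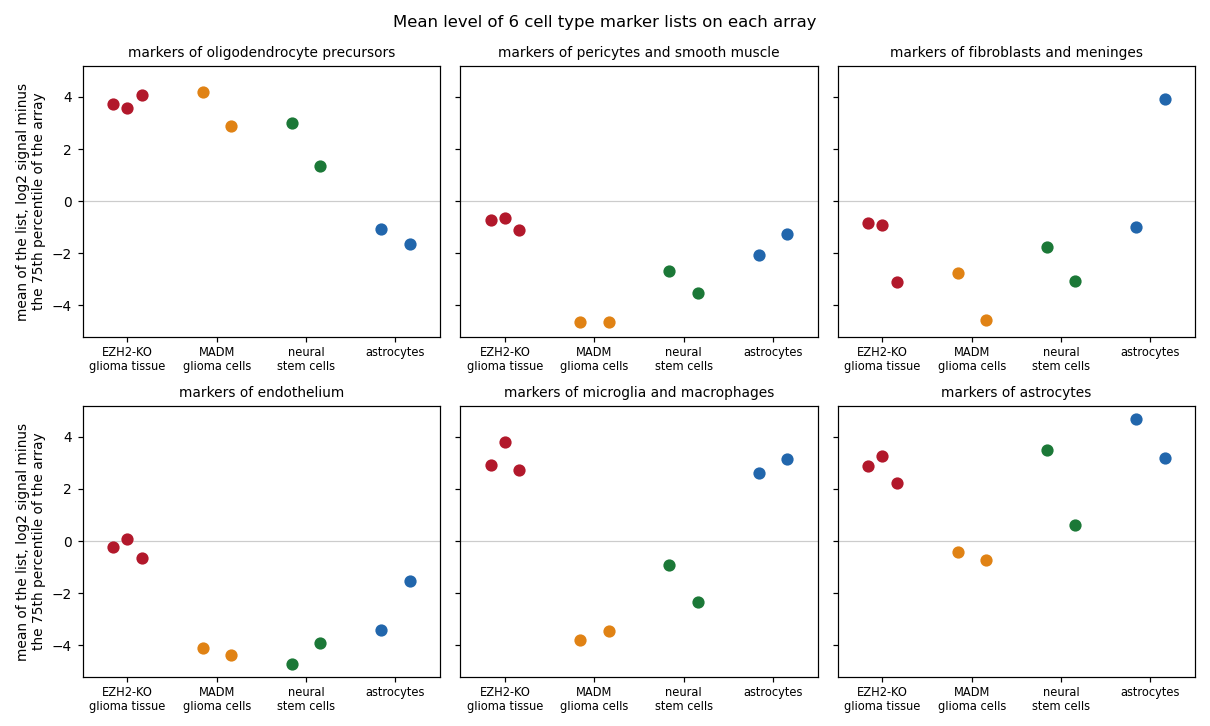
Each point is 1 array, and each panel gives the mean level of 1 marker list, as log2 signal minus the 75th percentile of the array, with EZH2-KO glioma tissue, MADM glioma cells, neural stem cells and astrocytes from left to right. Oligodendrocyte precursor markers are lowest in astrocytes at -1.08 and -1.64, microglial markers are high in the tissue and in astrocytes, and fibroblast markers are at -0.98 on astrocyte array 1 and 3.93 on array 2.

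Among the ligands, Pdgfa was well above background on every array and varied least between groups. It stood at 3.17, 4.0 and 3.13 in EZH2-KO glioma tissue, at 4.56 and 4.01 in MADM glioma cells, at 3.64 and 3.30 in neural stem cells, and at 4.55 and 4.71 in astrocytes. The whole range over the 9 arrays was 1.58. Both tissue and neural stem cells lay below astrocytes with no overlap, as 58.0% and 66.7% of all genes did in 1 direction or the other, whereas glioma cell array 1 lay at the lower astrocyte array and glioma cell array 2 below both astrocyte arrays.

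Pdgfa fell in EZH2-KO glioma tissue against astrocytes by 2.30-fold (log2 fold change -1.20 ± 0.35, interval -2.01 to -0.39, adjusted p = 0.0431). The call is fragile: it was lost in 13 of 17 alternatives, among them quantile normalization (adjusted p = 0.0906), no filter on dim probes (0.0591), a fit of these groups alone (0.0618) and every array left out other than tissue array 2, with values up to 0.170. The overlapping probe gave -1.21 with an adjusted p of 0.0329 over all probes. In MADM glioma cells the change against astrocytes was -0.35 (interval -1.16 to 0.46, adjusted p = 0.467), and against neural stem cells it was 0.81 (interval -0.00 to 1.62, adjusted p = 0.344). Neural stem cells over astrocytes were at -1.16 (adjusted p = 0.0677, and 0.0402 under normexp), and EZH2-KO glioma tissue over neural stem cells at -0.04 (interval -0.85 to 0.78).

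Pdgfb, the ligand of both receptors, split the samples into high and low groups. It stood at 1.15, 0.78 and 0.26 in EZH2-KO glioma tissue, at -3.18 and -3.49 in MADM glioma cells, at -3.02 and -1.74 in neural stem cells, and at 1.12 and -0.04 in astrocytes. All of these values were well above background, and every tissue and astrocyte array lay above every glioma cell and neural stem cell array. Groups did not overlap for 55.6% of all genes between tissue and MADM glioma cells, 53.0% between tissue and neural stem cells, 69.5% between MADM glioma cells and astrocytes and 66.7% between neural stem cells and astrocytes.

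Pdgfb rose in EZH2-KO glioma tissue by 16.7-fold over MADM glioma cells (log2 fold change 4.06 ± 0.51, interval 2.87 to 5.25, adjusted p = 0.00269) and by 8.61-fold over neural stem cells (3.11 ± 0.51, interval 1.92 to 4.30, adjusted p = 0.00728). Both calls held under all 17 alternatives run, with an adjusted p of at most 0.0178 and 0.0317. In MADM glioma cells Pdgfb fell against astrocytes by 14.6-fold (-3.87 ± 0.60, adjusted p = 0.0149), a call that missed the threshold when glioma cell array 2 (0.0626) or the first astrocyte array (0.0599) was left out. In neural stem cells it fell against astrocytes by 7.56-fold (-2.92 ± 0.60, adjusted p = 0.0351), a call lost whenever any of the 6 cell arrays was left out, with adjusted p values of 0.0622 to 0.121. EZH2-KO glioma tissue and astrocytes differed by 0.19 (interval -1.0 to 1.38, adjusted p = 0.810), and MADM glioma cells and neural stem cells by -0.95 (interval -2.46 to 0.56, adjusted p = 0.556).

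The other Pdgfb probe, which shares no base with the first, gave calls in the same 4 comparisons. Its adjusted p over all probes was 0.00304 for EZH2-KO glioma tissue over MADM glioma cells, 0.00520 for EZH2-KO glioma tissue over neural stem cells, 0.0188 for MADM glioma cells over astrocytes and 0.0323 for neural stem cells over astrocytes. It was not well above background on any glioma cell or neural stem cell array, so it was tested only through the groups where it is high. Its processed intensity was 44.1 to 50.8 in the tissue and 24.4 to 40.2 in astrocytes. These calls set dim signals against signals near background and are no separate test of the change.

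**Figure D3:**
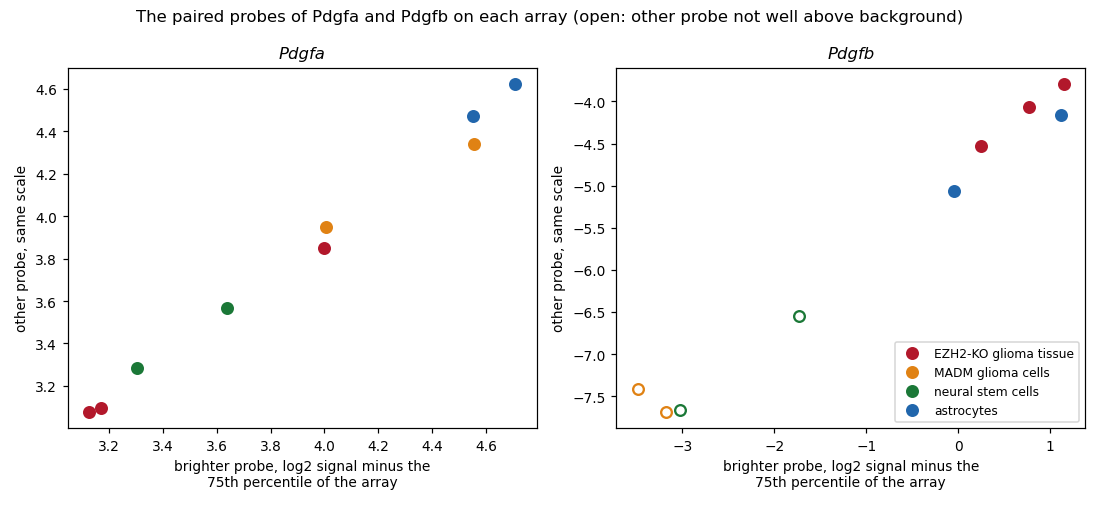
Each point is 1 array, coloured by group, with the brighter probe of Pdgfa (left) or Pdgfb (right) on the horizontal axis and the other probe on the vertical axis, both as log2 signal minus the 75th percentile of the array. Open points mark arrays on which the other probe was not well above background. The Pdgfa probes share 51 bases and follow each other closely, and the Pdgfb probes, 1062 bases apart, both separate tissue and astrocytes from MADM glioma cells and neural stem cells.

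Microglial and endothelial markers were read beside Pdgfb. The 12 markers of microglia and macrophages averaged 2.90, 3.79 and 2.73 in EZH2-KO glioma tissue, -3.81 and -3.46 in MADM glioma cells, -0.92 and -2.36 in neural stem cells, and 2.61 and 3.13 in astrocytes, so the groups high in Pdgfb were the groups high in these markers. Of the 12, 10 rose in EZH2-KO glioma tissue over MADM glioma cells (median log2 fold change 6.15), where 7.65% of all genes were called higher. In MADM glioma cells against astrocytes 11 fell (median -5.63), where 9.67% of all genes were called lower. The 10 endothelial markers averaged -0.23, 0.07 and -0.65 in the tissue, -4.11 and -4.36 in MADM glioma cells, -4.74 and -3.90 in neural stem cells and -3.42 and -1.52 in astrocytes. In the tissue over astrocytes 3 of 10 were called higher and 1 lower, against 10.5% and 12.5% of all genes. In the fits of cell arrays alone 6 of these genes were tested, and the others passed the filter only through the tissue. Cldn5, a tight junction gene of brain endothelium, was well above background on the 3 tissue arrays and on no cell array. Slco1a4, a transporter of brain endothelium, stood at -0.77, -0.28 and -0.84 in the tissue, against 0.69 and 1.02 in astrocytes. Cdh5, the cadherin of endothelial junctions, was at -2.22, -1.27 and -2.16 in the tissue, against 2.54 on astrocyte array 2 and a level not well above background on astrocyte array 1. Pecam1 and Kdr, an adhesion molecule and a VEGF receptor of endothelium, were well above background on all 9 arrays. The part of either cell type in the Pdgfb values was not tested.

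Pdgfc, which signals through the alpha receptor once its CUB domain is removed, was well above background on every array. It stood at -0.46, -0.31 and -0.26 in EZH2-KO glioma tissue, at -0.39 and -0.29 in MADM glioma cells, at -0.87 and 0.03 in neural stem cells, and at 0.46 and 1.54 in astrocytes. Tissue and glioma cells could not be separated, with a log2 fold change of -0.00 (interval -0.92 to 0.91), and both astrocyte arrays lay above every other sample.

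Pdgfc fell in EZH2-KO glioma tissue against astrocytes by 2.54-fold (log2 fold change -1.34 ± 0.39, interval -2.26 to -0.43, adjusted p = 0.0442). That call was lost in 10 of 17 alternatives, among them the unscaled deposited table (adjusted p = 0.0863), no filter on dim probes (0.0601), a fit of these groups alone (0.0529) and the fits without tissue array 1 (0.102), 2 (0.0842) or 3 (0.0940), glioma cell array 1 (0.0663) or 2 (0.0667), or astrocyte array 2 (0.244). MADM glioma cells over astrocytes were at -1.34 as well (interval -2.60 to -0.08, adjusted p = 0.114), and neural stem cells over astrocytes at -1.42 (interval -2.68 to -0.16, adjusted p = 0.109).

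Pdgfd, the ligand of the beta receptor, passed background on the fewest arrays. It was well above background on both astrocyte arrays, at -2.69 and -1.37, and on tissue array 2, at -3.86. The other tissue arrays read -5.38 and -5.59, MADM glioma cells -7.34 and -5.19 and neural stem cells -7.63 and -7.22, all not well above background, so these values have no order among themselves.

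Against astrocytes Pdgfd was at least 9.56-fold lower in MADM glioma cells (adjusted p = 0.0267) and at least 10.9-fold lower in neural stem cells (adjusted p = 0.0179), and it fell in both. With 1 array left out the bounds ran from 6.05 to 15.1 and from 6.90 to 17.2. They hold for the signals of the main fits and are 3.26 and 3.45 in log2. Over 13 alternatives each, the fitted log2 fold change came as near to no change as -1.41 in MADM glioma cells and -1.52 in neural stem cells. The call in MADM glioma cells missed the threshold when glioma cell array 1 (0.0564) was left out, and likewise for neural stem cell array 1 (0.0520) or 2 (0.0530), or astrocyte array 1 (0.0605) or 2 (0.108), and that in neural stem cells without neural stem cell array 1 (0.0655) or 2 (0.0828) or astrocyte array 2 (0.0781). Under normexp background correction they missed the threshold at 0.0599 and 0.0558. EZH2-KO glioma tissue, well above background on 1 of 3 arrays, fell against astrocytes by 7.54-fold (log2 fold change -2.91, interval -4.73 to -1.10, adjusted p = 0.0321). No tissue signal lay below the weakest signal called well above background on its array, so this is the fitted value and not a bound. The call was lost without tissue array 1 (0.0872) or 3 (0.0923) or either astrocyte array. With the other group raised as for the bounds, the tissue was 1.45-fold above neural stem cells and 1.27-fold above MADM glioma cells. These are no bounds, since the tissue was itself well above background on only 1 of 3 arrays. With 1 array left out they went down to 0.993 and 0.870. The limma adjusted p was 0.0610 and 0.261. Over neural stem cells it was 0.0280 on the unscaled deposited table, and it also passed with 1 glioma cell array left out. It stayed uncalled in 11 of 15 alternatives. Over these the log2 fold change, 2.49 in the main fit, ran from 0.03 to 3.03, with an adjusted p of up to 0.959.

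**Figure D4:**
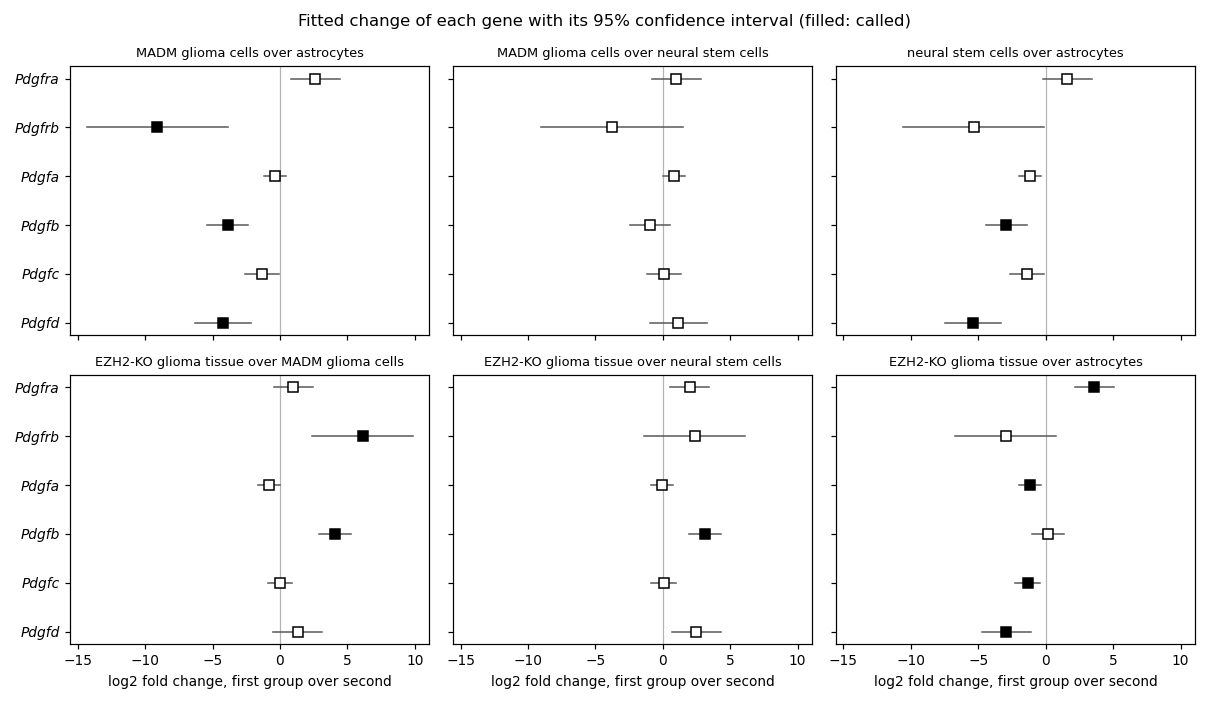
Each panel is 1 comparison, with the log2 fold change of the first-named group over the second on the horizontal axis and the 6 genes down the page. Squares are limma estimates, lines their 95% intervals and filled squares calls. Fitted values of Pdgfrb and Pdgfd against groups not well above background are not bounds. Pdgfb is filled in 4 of 6 comparisons, and the interval of Pdgfrb is the widest in every panel.

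Transcripts that act on PDGF ligands or carry the receptor signal were read from 5 lists holding 65 genes other than the family itself. In MADM glioma cells over astrocytes 4 of 63 tested rose and 8 fell, and over neural stem cells none rose and 1 fell. Neural stem cells over astrocytes had 4 of 63 higher and 4 lower. In EZH2-KO glioma tissue 6 of 64 rose and 3 fell over MADM glioma cells, 8 rose and 6 fell over neural stem cells, and 6 rose and 8 fell over astrocytes. As shares these are 4.69% to 12.7% in each direction, leaving aside the comparison of MADM glioma cells with neural stem cells, against 7.21% to 12.5% of all genes.

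Ligand processing and retention, a list of 11 genes, had 1 higher and 4 lower in MADM glioma cells over astrocytes, with a median log2 fold change of -1.72 (-1.53 with dim signals raised) against 0.18 over all genes. Pcsk6, a proprotein convertase, stood at 2.06, 2.90 and 3.37 in EZH2-KO glioma tissue and at 2.70 and 3.54 in MADM glioma cells, against 0.63 and 0.45 in neural stem cells and 0.97 and 0.72 in astrocytes. It rose in MADM glioma cells over astrocytes by 4.83-fold (adjusted p = 0.0173) and in EZH2-KO glioma tissue over neural stem cells by 4.71-fold (adjusted p = 0.0129) and over astrocytes by 3.81-fold (adjusted p = 0.0180). Nrp1, a VEGF co-receptor that also binds PDGF ligands, fell against astrocytes in MADM glioma cells by 13.4-fold (adjusted p = 0.0183) and in EZH2-KO glioma tissue by 4.72-fold (adjusted p = 0.0238). Plau, the urokinase that can activate PDGF-D, was well above background on tissue array 2 (-3.37) and on both astrocyte arrays (-4.47 and -3.04). These are the same 3 arrays as for Pdgfd, and how many other genes share that pattern was not counted.

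Of the 32 receptor adaptors and effectors, 2 of 31 tested rose and 1 fell in MADM glioma cells over astrocytes, and 4 rose and 4 fell of 32 in EZH2-KO glioma tissue over astrocytes. Fyn, a Src family kinase bound by the activated receptors, rose against astrocytes by 10.2-fold in MADM glioma cells (adjusted p = 0.00707), by 7.25-fold in neural stem cells (adjusted p = 0.0130) and by 9.16-fold in EZH2-KO glioma tissue (adjusted p = 0.00207). Shc1, an adaptor to the Ras pathway, fell against astrocytes by 6.12-fold in EZH2-KO glioma tissue (adjusted p = 0.00942) and by 4.53-fold in neural stem cells (adjusted p = 0.0483).

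Phosphatases, ubiquitin ligases and other brakes on the receptors made a list of 11. Socs3, a feedback inhibitor of cytokine signalling, fell against astrocytes by 9.41-fold in MADM glioma cells (adjusted p = 0.0124), by 12.4-fold in neural stem cells (adjusted p = 0.0119) and by 8.14-fold in EZH2-KO glioma tissue (adjusted p = 0.00374). Lrig1, a membrane protein that restrains receptor tyrosine kinases, stood at -0.22 and 0.47 in MADM glioma cells, against 3.99 and 4.31 in neural stem cells and 3.40 and 2.41 in astrocytes. It was the single pathway gene called in MADM glioma cells over neural stem cells, where it fell by 16.3-fold (adjusted p = 0.0382), and it fell by 6.87-fold against astrocytes (adjusted p = 0.0176). No gene at all was called in MADM glioma cells over neural stem cells once any cell array other than glioma cell array 2 was left out, where limma gave 3131 to 3769 genes an unadjusted p under 0.05. EZH2-KO glioma tissue stood at 1.17, 2.95 and 0.43, and Lrig1 fell there against neural stem cells by 6.20-fold (adjusted p = 0.0387).

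Among the 5 tested relatives of the receptors, Kit, the stem cell factor receptor, shared the sign of Pdgfra against astrocytes. It stood at 1.42, 1.05 and 2.01 in EZH2-KO glioma tissue, at 1.59 and 1.79 in MADM glioma cells and at 1.87 and 0.48 in neural stem cells, against -4.03 and -2.89 in astrocytes. The rises over astrocytes were 30.9-fold in the tissue (adjusted p = 0.00142), 35.5-fold in MADM glioma cells (adjusted p = 0.00782) and 24.8-fold in neural stem cells (adjusted p = 0.0126). Csf1r, the colony-stimulating factor receptor of microglia, fell in MADM glioma cells against astrocytes by 59.2-fold (adjusted p = 0.00246) and rose in EZH2-KO glioma tissue over MADM glioma cells by 46.4-fold (adjusted p = 0.000223). Of the 5 VEGF relatives of the ligands, Vegfc rose in EZH2-KO glioma tissue over MADM glioma cells by 11.5-fold (adjusted p = 0.0215). None was called in MADM glioma cells over either normal cell type. The shares of all genes called higher and lower there were 9.70% and 9.67% over astrocytes and 0.680% and 0.322% over neural stem cells.

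The genes whose levels over the 9 arrays were most like each family member were found among 15921 characterised genes, keeping those with at least 0.5 times the member's range, which left 2787 for Pdgfrb to 15151 for Pdgfa. Pearson's r is given as a description, since the arrays fall into groups and with 9 arrays many genes reach a high value. For Pdgfra they were Fgf12 (0.987), Pde4b (0.979) and Cyrib (0.975), and for Pdgfrb, with 3 arrays not well above background, they were Pdk4 (0.990), Castor1 (0.980) and Gal3st4 (0.969). For Pdgfa they were Fkbp7 (0.983), Lmx1a (0.977) and Zfp963 (0.968). For Pdgfb they were Htr2a (0.978), Cxcl10 (0.974) and Bst2 (0.973), of which Cxcl10 and Bst2 are interferon-inducible genes. For Pdgfc they were Cyp2f2 (0.969), Ltb4r1 (0.964) and Tmem43 (0.960), and for Pdgfd, whose order rests on 3 arrays above background, C1qtnf1 (0.973), Cysltr1 (0.970) and Nfam1 (0.967). Among the 4 members well above background on all arrays, r was highest for Pdgfa with Pdgfc (0.569) and lowest for Pdgfra with Pdgfc (-0.801).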

How the data were processed

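The deposited scanner files hold each spot's intensity, background-subtracted and detrended within the array by Agilent Feature Extraction, with version 10.7.3.1 on the tissue slide and 10.7.1.1 on the other, per the file headers. Only 10.7.3.1 stands in the submitters' processing notes. The authors also deposited a table of log2 values, 99.2% to 100% of which on an array lay within 0.01 of the unscaled log2 processed signal. Its column medians ran from 5.08 to 6.28. Of 59305 non-control spots per array, 96 to 164 outlier spots were left out and spots of a probe averaged. From each array's log2 processed signal its 75th percentile was subtracted. A probe was tested if all arrays of some group in the fit had it well above background, and the brightest stood for its gene. The 3 cell groups were compared in limma 3.58.1 (lmFit and eBayes, R 4.3.3) on 6 arrays, and the tissue on all 9. Tests were two-sided. The fits were tested on simulated data. Current gene names came from a RefSeq table of GRCm38.p6. Figures used Python 3.11.15 and matplotlib 3.10.9. The number of arrays limits the precision. Alternatives were the background correction, normalization, probe filter, representative probe, arrays in the fit, replicate block and each array left out. Members, gene lists and the rule for named genes (the 6 members, the 3 genes most like each, and up to 2 called genes per pathway list and direction, of which a part is given) were chosen with earlier results of these data known.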

Additional observations from a re-analysis of the deposited data

How the results depend on the processing

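Of 544 refits of the 36 member fold changes, 446 kept their direction and side of the threshold, 61 lost a call, 20 gained 1 and 17 changed sign. Calls that held under all 17 alternatives were Pdgfra in EZH2-KO glioma tissue over astrocytes and Pdgfb in the tissue over MADM glioma cells and over neural stem cells. With 2 or 3 arrays a group, leaving out 1 costs residual degrees of freedom, and signals near background limit Pdgfd and Pdgfrb. A slide block was not run, since each slide holds either tissue or cells. Normexp used the median spot signal in fits with tissue, whose files lack the mean signal. No value is given under the stricter filter for genes it removes.

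The number of the 6 genes called in MADM glioma cells over astrocytes (3) was 1 with the stricter filter and 1 to 2 with an array left out, and in neural stem cells over astrocytes (2) it was 1 with the stricter filter and 0 to 1 with an array left out. In EZH2-KO glioma tissue over MADM glioma cells (2) it was 1 under normexp, 1 with the stricter filter and 1 to 2 with an array left out. In the tissue over neural stem cells (1) it was 2 under normexp, 2 under quantile normalization, 3 on the deposited table, 2 in a fit of these groups alone and 1 to 2 with an array left out. In the tissue over astrocytes (4) it was 2 on the deposited table, 2 without a filter and 1 to 4 with an array left out.

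Counts over all genes moved as follows. MADM glioma cells over neural stem cells (249) had 69 with the stricter filter, 129 without a filter, 500 with all 9 arrays and 0 to 302 with an array left out, where 3131 to 3769 genes kept an unadjusted limma p under 0.05 in the fits with 0. With an array left out the counts were 2029 to 4862 for MADM glioma cells over astrocytes, 1201 to 2705 for neural stem cells over astrocytes, 2028 to 4872 for the tissue over MADM glioma cells (2945 with the stricter filter), 1716 to 4419 over neural stem cells and 3209 to 6055 over astrocytes. The unscaled deposited table adds 0.58, 0.55 and 0.11 to every log2 fold change of the tissue over MADM glioma cells, neural stem cells and astrocytes, and -0.47, -0.03 and -0.44 to those of MADM glioma cells over astrocytes, MADM glioma cells over neural stem cells and neural stem cells over astrocytes.

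All sign changes were of values that were not called. Pdgfc in the tissue over MADM glioma cells (-0.00) was 0.042 under normexp, 0.017 under quantile normalization, 0.58 on the deposited table and -0.054 to 0.053 with an array left out, and Pdgfd there (1.33) was -0.079 under normexp. Over neural stem cells the tissue had Pdgfa (-0.04) at 0.26 under quantile normalization, 0.51 on the deposited table and -0.32 to 0.13 with an array left out, Pdgfrb (2.37) at -0.92 to 5.67 and Pdgfc (0.08) at -0.37 to 0.53. Pdgfb in the tissue over astrocytes (0.19) ran from -0.40 to 0.77, and Pdgfc in MADM glioma cells over neural stem cells (0.08) from -0.37 to 0.53. The cause was not tested.

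Replicate numbers are shared between groups, but the labels tie them to no batch or animal. Deviations of same-numbered arrays correlated between -0.156 and 0.121. In groups of 2 arrays the deviations mirror each other, so these values cannot exclude a pairing, and the main fits used none. With the replicate block the 6 genes gave 1 call in neural stem cells over astrocytes, 1 in the tissue over MADM glioma cells, 2 over neural stem cells and 2 over astrocytes. Over all genes the replicate block gave 5 calls in MADM glioma cells over neural stem cells, 4324 over astrocytes, 3040 in neural stem cells over astrocytes, and 2703, 2714 and 3231 in the tissue over MADM glioma cells, neural stem cells and astrocytes. With the block adjusted p was 0.0511 for Pdgfrb in MADM glioma cells over astrocytes, 0.0600 for Pdgfb in neural stem cells over astrocytes, 0.0897 for Pdgfrb in the tissue over MADM glioma cells, and 0.159 and 0.0711 for Pdgfa and Pdgfc in the tissue over astrocytes, all calls lost, and 0.0246 for Pdgfd in the tissue over neural stem cells, a call gained. Pdgfa in that comparison was 0.11.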
